A study of Mus musculus with 23 samples.

Results

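The genes described here code for the subunits of oxidative phosphorylation, the enzymes of the inner mitochondrial membrane that turn the energy of food into ATP. They were taken as all genes on the array whose single symbol begins with Ndufa, Ndufb, Ndufc, Ndufs, Ndufv, Uqcr, Cox4 to Cox8 or Atp5, or is Sdha, Sdhb, Sdhc or Sdhd. Each gene was read from 1 probe set, the one whose mean over the 23 arrays was highest, and was kept when 4 or more arrays had a log2 value of 4 or higher for it. The pattern found 84 genes, and 82 of them were kept among 9197 genes tested. Cox7a1, the heart and skeletal muscle isoform of oxidase subunit 7a, and Cox6b2, the testis isoform of subunit 6b, did not pass. By what the proteins do, 33 of the 82 belong to complex I, 4 to complex II, 8 to complex III, 14 to complex IV and 17 to complex V. The remaining 6 are no subunits: Ndufaf1, Ndufaf3, Ndufaf4, Ndufaf5 and Ndufaf7 help to assemble complex I, and Cox7a2l joins complexes III and IV. Ndufa4 carries a complex I name and is counted with complex IV, where its protein is now placed. The probe sets of Ndufa11, Ndufb4 and Ndufs6 carry several symbols and are not described.

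The RNA was extracted from prefrontal cortex; the mice were C57BL/6 males, offspring of purchased wild-type breeders, 1 animal per array, at postnatal weeks 2, 3, 4, 5 and 10 on Affymetrix arrays. There were 6, 4, 4, 5 and 4 animals, no treatment is named in the labels, and the question is how the cortex changes as it matures after birth. The tissue was everything in front of a coronal cut, so all cell types of that block were mixed. Scan day 1 held 2 arrays of a separate chip lot, those of week 10 animal 1 and of 1 week 5 animal (batch 1 animal 2), week 3 was scanned on a day with no other age, and batch 2 consisted of 2 animals each of weeks 2 and 5.

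Complexes I and II take electrons from NADH and succinate and pass them to ubiquinone, complex III passes them on to cytochrome c, and complex IV, cytochrome c oxidase, gives them to oxygen. Complexes I, III and IV pump protons as they do so, and complex V, ATP synthase, lets the protons flow back through a rotor ring and makes ATP. The brain depends on this pathway for nearly all of its ATP, most of which neurons spend on ion pumping and synaptic transmission. The genes described here are all nuclear, and the mitochondrial DNA codes for some of the remaining subunits.

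Promoters are shown for 2 genes of the c subunit of ATP synthase, because 1 mature protein comes from separate genes with promoters of their own and these genes are set side by side in the results, and for Ndufa5, a complex I gene that was higher at week 10. Each window is the 250 bases before an annotated start, from RefSeq on GRCm38.p6, given 5′ to 3′ on the gene's strand. For Atp5g1 only the 187 bases outside the annotated gene are printed. Capitals mark the motif of nuclear respiratory factor 1, a transcription factor of many mitochondrial genes, searched on both strands as GCGCNNGCGC, which reads the same on either.
Atp5g1, chr11:96075695-96075881, minus strand: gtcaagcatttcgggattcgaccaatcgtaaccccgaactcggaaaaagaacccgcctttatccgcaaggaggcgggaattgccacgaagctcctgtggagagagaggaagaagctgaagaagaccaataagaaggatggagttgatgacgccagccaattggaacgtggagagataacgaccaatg
Atp5g2, chr15:102671048-102671297, minus strand: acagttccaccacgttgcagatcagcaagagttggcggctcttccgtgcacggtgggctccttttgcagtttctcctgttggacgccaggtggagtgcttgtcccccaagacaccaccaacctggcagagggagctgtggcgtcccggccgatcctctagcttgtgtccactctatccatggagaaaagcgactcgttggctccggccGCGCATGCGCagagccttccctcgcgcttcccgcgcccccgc
Ndufa5, chr6:24527691-24527940, minus strand: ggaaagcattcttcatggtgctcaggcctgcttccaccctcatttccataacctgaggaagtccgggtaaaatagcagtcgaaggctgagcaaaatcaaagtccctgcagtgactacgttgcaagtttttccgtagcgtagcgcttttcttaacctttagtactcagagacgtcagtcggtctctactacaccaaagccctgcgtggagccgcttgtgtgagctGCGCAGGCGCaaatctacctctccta
The motif stood once in the Atp5g2 window, its first base 42 bases before the start, and once in the Ndufa5 window, 26 bases before the start. It was not found in the Atp5g1 window or in that of Atp5g3, the remaining c subunit gene. The Atp5g3 window, chr2:73911327-73911576, lies wholly inside the annotated gene at chr2:73908447-73912464. It therefore does not cover the bases before that gene, and none of it is printed. RefSeq promoters were found for 68 of the 82 members, and 13 of the 68 (19.1%) held the motif in such a window, against 1523 of 27025 genes in the whole table (5.64%). The holders were Ndufa5, Ndufa8, Ndufab1, Ndufs5 and Ndufv2 of complex I, Sdha and Sdhd of complex II, Cox6a1 of complex IV, Atp5c1, Atp5g2, Atp5h and Atp5k of complex V, and Ndufaf4. None of the 5 complex III members with a window held it. The core GGAAG bound by ETS factors, searched on both strands, stood in 49 of the 68 members (72.1%) and in 66.9% of all genes. For both motifs the share of all genes takes in genes not tested on the array. The shares of the 9197 tested genes were not counted. Of the members called higher at week 10 that had a window, 3 of 4 held the nuclear respiratory factor 1 motif, of those called lower 1 of 8, and of those not called 9 of 56. The higher holders were Ndufa5, Sdha and Atp5h, whose calls were each lost when certain single arrays were left out. Ndufs7, whose higher call held without any 1 array, did not hold it. These groups are small, and the difference between them was not tested. These matches describe letters in a window and show no binding.

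Between week 2 and week 10 most oxidative phosphorylation genes stayed within a narrow band. The fitted change was under 0.3 log2 units in size, 1.23-fold, for 73 of the 82 members. Its 95% interval lay between -0.5 and 0.5 for 72 of them. The share of all genes within these bounds was not counted. The median SE was 0.0897 over the members and 0.1143 over all genes. Called at a limma p-value adjusted over all tested probe sets under 0.05, 4 members were higher at week 10 and 11 were lower. Over all genes tested 7.12% were called higher and 11.4% lower, so the members' share of 18.3% called in either direction lay beside 18.5% of all genes. The median change was -0.059 over the members and 0.0065 over all genes.

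By complex, the called members were spread unevenly in number. In complex III 4 of 8 members were lower and none higher, with a median change of -0.23. The mean log2 level of its 8 genes was 11.35 to 11.50 in the week 2 animals, 11.20 to 11.27 at week 5 and 11.12 to 11.27 at week 10, with no overlap of week 2 with either. It was 11.24 to 11.34 at week 3, and 11.24 to 11.45 at week 4, which overlapped week 2. The mean takes in Uqcr10 and Uqcrq, whose other tested probe sets had estimates above 0 at week 10. In complex V 3 of 17 were lower and 1 higher, with a median of -0.15, and 15 of the 17 estimates were below 0. Complex I had 2 higher and 2 lower of 33 and a median of 0.027. Complex II had 1 of 4 in each direction. Complex IV had 1 lower of 14 and a median of -0.098, and none of the 6 assembly and accessory factors was called. The difference between complexes was not tested.

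**Figure D1:**
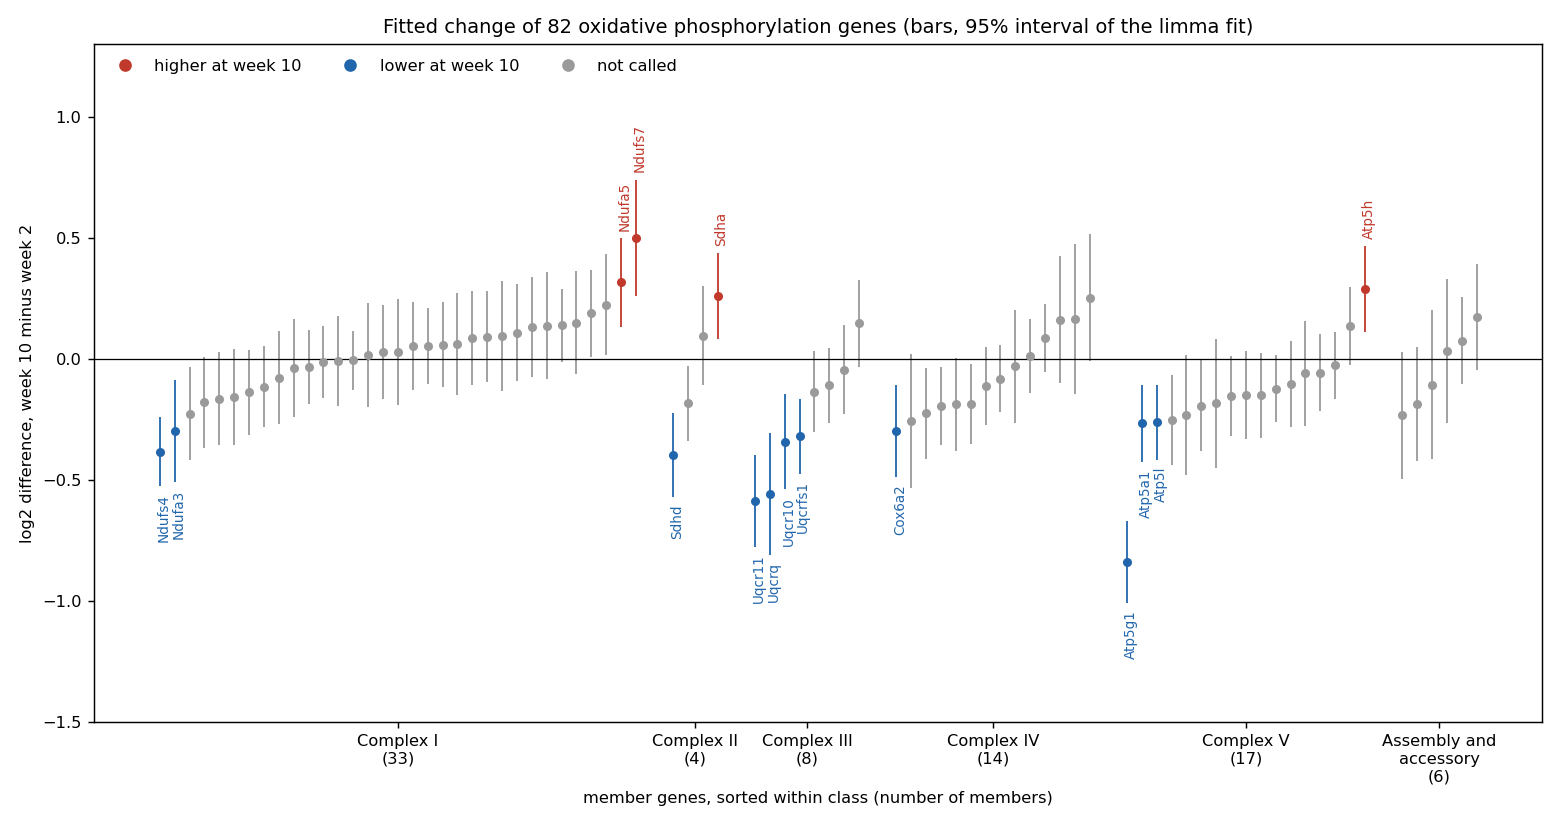
Fitted log2 change from week 2 to week 10 of each of the 82 genes, sorted within complex I to V and the assembly and accessory factors (x axis); bars are 95% intervals of the limma fit over 23 arrays. The 4 genes higher at week 10 are Ndufs7, Ndufa5, Sdha and Atp5h, and Atp5g1 lies lowest at -0.84.

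Complex V held the largest change of all members. Atp5g1 codes for the c subunit, copies of which form the rotor ring that the protons turn, and lies at chr11:96072793-96075694 (GRCm38). At week 2 its log2 level ran from 11.68 over a median of 11.77 to 11.84 in 6 animals. At week 10 it was 10.68, 11.01, 11.10 and 10.82 in animals 1, 6, 7 and 8. Every week 10 animal lay below every week 2 animal. The fitted change was -0.84 (SE 0.082), a 1.79-fold lower level, with a limma adjusted p of 4.71e-07. Between these ages lay 11.25, 11.29, 11.29 and 11.45 at week 3, 11.31, 11.40, 11.30 and 11.14 at week 4, and 11.00, 11.22, 11.15, 11.08 and 11.20 at week 5. No animal of week 3, 4 or 5 reached the lowest animal of week 2. The call held in all 18 other settings and in all 23 fits that left out 1 array.

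Atp5g2 and Atp5g3 code for the same mature c subunit with other import sequences, and neither was called. Atp5g2 ran from 9.85 to 10.17 at week 2 and was 9.93, 9.88, 9.78 and 9.65 at week 10, with a change of -0.20 (SE 0.090, adjusted p = 0.147 in limma). Atp5g3 ran from 13.18 to 13.41 at week 2 and was 13.30, 13.18, 12.99 and 12.98 at week 10, with a change of -0.15 (SE 0.084, adjusted p = 0.236 in limma). The ages overlapped for both genes. Their 95% intervals reached down to -0.38 and -0.33, and the interval of Atp5g1 ended at -0.67, so that the intervals did not meet. The difference between the genes was not tested.

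**Figure D2:**
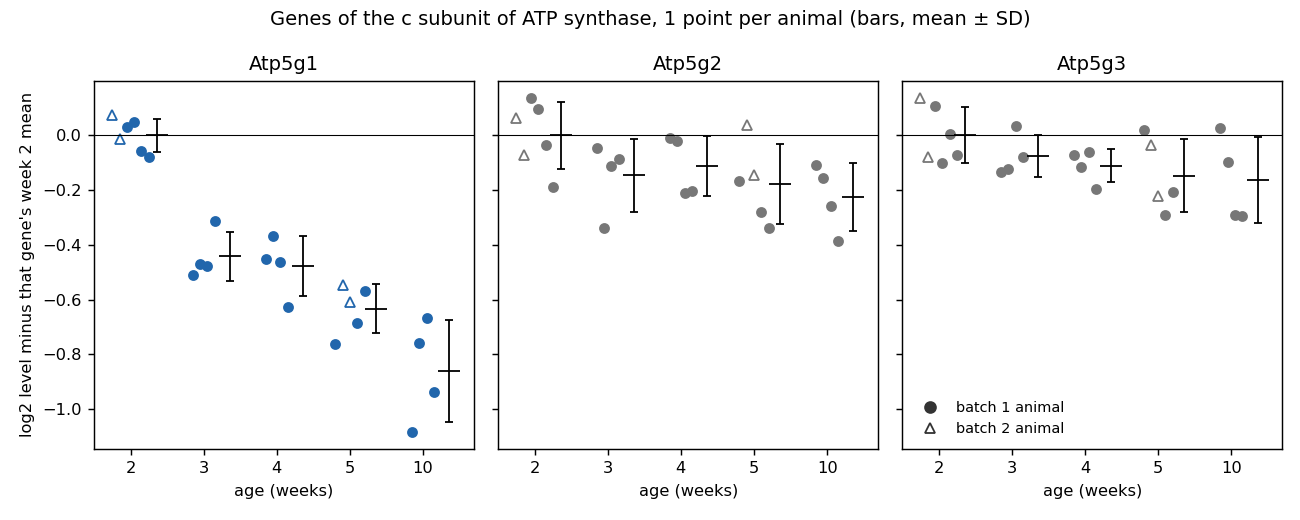
Log2 level of Atp5g1, Atp5g2 and Atp5g3 minus the gene's own week 2 mean (y axis) by age in weeks (x axis), 1 point per animal, filled for batch 1 and open for batch 2, with mean ± SD beside the points. All animals of weeks 3 to 10 lie below the week 2 animals for Atp5g1, and the ages overlap for the other genes.

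In the other parts of ATP synthase the changes were smaller. Atp5a1, the alpha subunit of the catalytic head, fell by 0.27 on the log2 scale (SE 0.076, adjusted p = 0.0197 in limma), from 12.55 ± 0.095 (SD, n = 6) to 12.28 ± 0.14 (n = 4), and 1 week 10 animal at 12.45 lay within the week 2 range. Its call was lost without week 2 animal 4 or without week 10 animal 7 or 8, the adjusted p reaching 0.076. Atp5b, the beta subunit that makes ATP, was not called (-0.12, adjusted p = 0.218 in limma). Atp5l, subunit g at the contact between paired ATP synthases, fell by 0.26 (SE 0.074, adjusted p = 0.0177 in limma), from 10.83 ± 0.11 to 10.56 ± 0.094. That call was lost without week 10 animal 1, at an adjusted p of 0.0613.

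Atp5h, subunit d of the peripheral stalk, went the other way. It ran from 12.52 over a median of 12.74 to 12.96 at week 2 and was 13.03, 13.18, 13.02 and 13.03 at week 10. The ages did not overlap. The change was 0.29 (SE 0.086, adjusted p = 0.0246 in limma). A second Atp5h probe set had a change of 0.011 (adjusted p = 0.94), and without week 2 animal 6 or week 10 animal 6 the call was lost, at up to 0.0784. The other stalk genes were not called. Atp5d, Atp5c1 and Atp5pb, the delta, gamma and b subunits, had changes of -0.23, -0.061 and -0.15. For Atp5d and Atp5pb a second probe set was called lower (-0.27 and -0.29), and for Atp5c1 a dim second probe set was called higher (0.31).

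In complex III the members called lower were 3 small subunits and the Rieske protein, and the core protein Uqcrc2 did not pass the test. Uqcr11, a small subunit at the rim of the complex, lies at chr10:80402997-80406821. It ran from 10.71 over a median of 10.86 to 11.22 at week 2 and was 10.32, 10.37, 10.52 and 10.33 at week 10. Every week 10 animal lay below every week 2 animal. The change was -0.59 (SE 0.091), 1.50-fold lower, with an adjusted p of 0.000122 in limma, and the call held in all 18 other settings. The level was 10.53, 10.53, 10.74 and 10.79 at week 3, 10.82, 10.85, 10.73 and 10.53 at week 4, and 10.39, 10.42, 10.32, 10.48 and 10.50 at week 5. The week 5 animals spanned nearly the same range as those of week 10.

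Uqcrq, a small subunit near the ubiquinone site, ran from 10.28 over a median of 10.50 to 10.61 at week 2 and was 9.45, 10.09, 10.21 and 10.06 at week 10. The ages did not overlap, and animal 1 of week 10, an array of scan day 1, lay far below the other animals. The change was -0.56 (SE 0.12, adjusted p = 0.00287 in limma), and it was called in all 23 fits that left out 1 array, that one included. Uqcrfs1, the Rieske iron-sulfur protein that hands electrons towards cytochrome c, ran from 11.23 over 11.38 to 11.48 at week 2 and was 11.15, 11.02, 11.13 and 10.99 at week 10. It fell by 0.32 (SE 0.075, adjusted p = 0.00511 in limma), with no overlap of the ages.

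Uqcr10, another small subunit, ran from 10.17 over 10.35 to 10.47 at week 2 and was 9.77, 10.23, 10.08 and 10.02 at week 10. The ages overlapped by 1 animal of each. Its change was -0.34 (SE 0.094, adjusted p = 0.0151 in limma) and was not called without week 10 animal 1 (adjusted p = 0.0689). Both other tested Uqcr10 probe sets went in the opposite direction and were called higher, by 0.97 (adjusted p = 0.0026) and 0.31 (adjusted p = 0.039). The probe sets of Uqcr10 thus gave no single direction. Uqcrc2, a core protein and the complex III member with the brightest probe set, had a change of 0.15 (SE 0.086, adjusted p = 0.269 in limma).

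**Figure D3:**
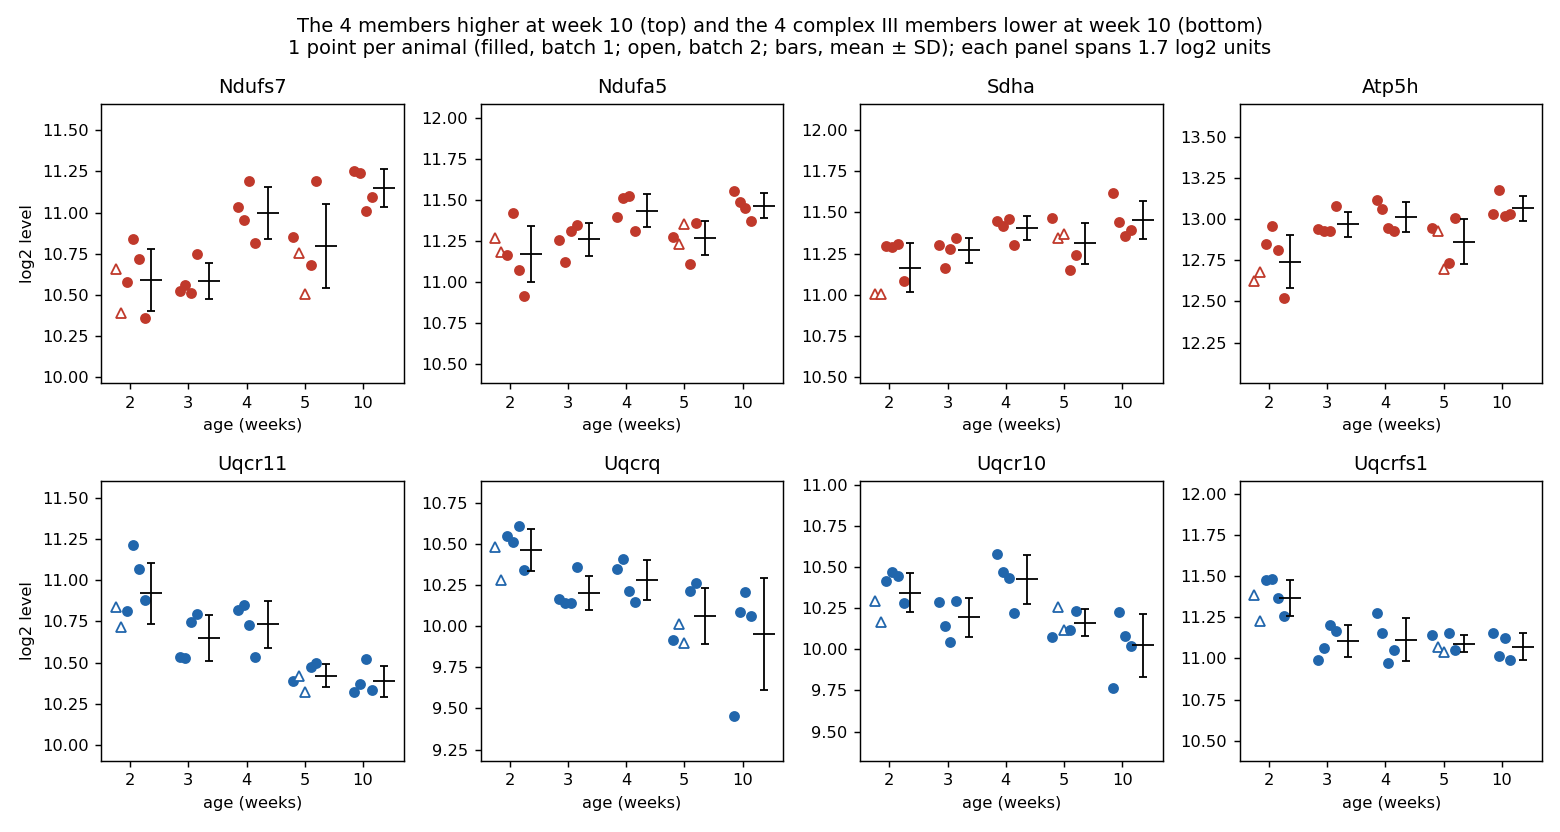
Log2 level (y axis) by age in weeks (x axis) of the 4 members higher at week 10 (Ndufs7, Ndufa5, Sdha, Atp5h) and the 4 complex III members lower at week 10 (Uqcr11, Uqcrq, Uqcr10, Uqcrfs1), 1 point per animal with mean ± SD. Each panel has its own level range of equal height; Uqcrq of week 10 animal 1 lies lowest in its panel at 9.45.

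**Figure D4:**
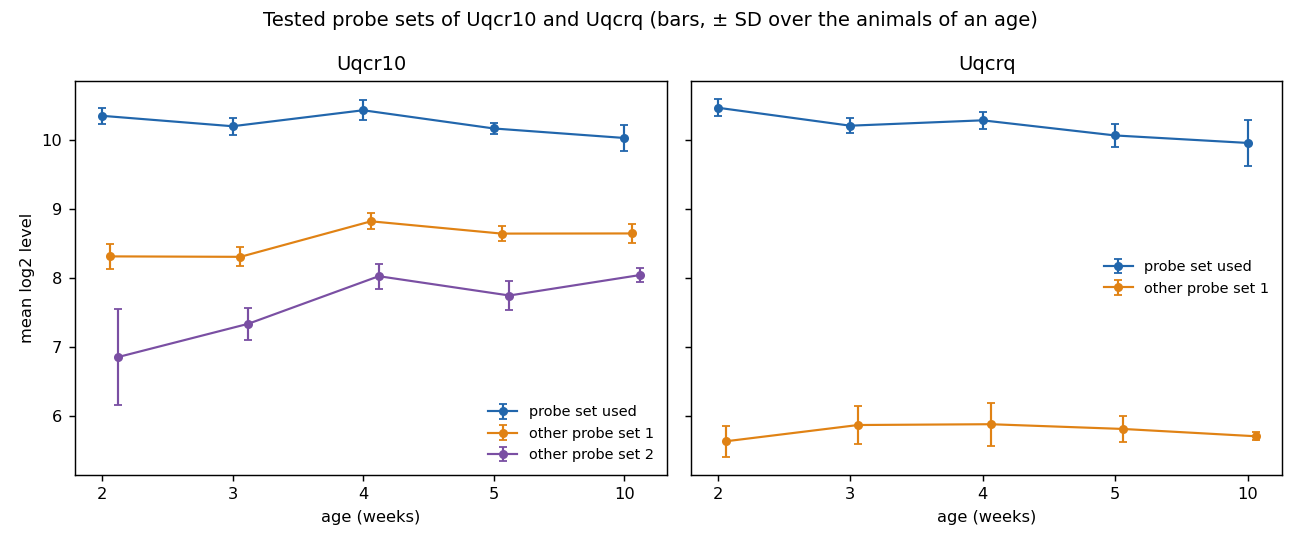
Mean log2 level (y axis) by age in weeks (x axis) of every tested probe set of Uqcr10 and Uqcrq; bars are ± SD over the 6, 4, 4, 5 and 4 animals of an age. The line shapes are to be compared and not the heights, which depend on the probes: the used Uqcr10 probe set ends lower and both others end higher.

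The subunits of complex II, succinate dehydrogenase, split. Sdhd, a membrane anchor that holds the enzyme near ubiquinone, ran from 9.98 over a median of 10.14 to 10.39 at week 2 and was 9.66, 9.87, 9.79 and 9.78 at week 10. The ages did not overlap, and the change was -0.40 (SE 0.084, adjusted p = 0.00221 in limma). A second Sdhd probe set had a change of 0.056 (adjusted p = 0.721). Sdha, the flavoprotein that oxidises succinate, ran from 11.00 over 11.18 to 11.31 at week 2 and was 11.62, 11.44, 11.36 and 11.39 at week 10. Every week 10 animal lay above every week 2 animal. The change was 0.26 (SE 0.085, adjusted p = 0.0408 in limma), but it was called in 15 of the 23 fits that left out 1 array, the adjusted p reaching 0.14 without week 10 animal 1, and not with week 2 animal 5 placed in batch 2, as its description has it. Sdhb, the iron-sulfur subunit, was not called (0.096, adjusted p = 0.545).

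Of the 33 members of complex I, the largest of the complexes, 29 were not called. Ndufs7, a core iron-sulfur subunit beside the ubiquinone site, lies at chr10:80249105-80256794. It ran from 10.36 over a median of 10.62 to 10.84 at week 2 and was 11.25, 11.24, 11.01 and 11.09 at week 10. The ages did not overlap. The change was 0.50 (SE 0.12), 1.41-fold higher, with an adjusted p of 0.00495 in limma. A second Ndufs7 probe set had a change of 0.11 and was not called (adjusted p = 0.546). Week 5 spread widely, at 10.85, 10.76, 10.51, 10.68 and 11.19.

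Ndufa5, a small subunit of the arm that reaches into the matrix, ran from 10.92 over 11.17 to 11.42 at week 2 and was 11.55, 11.48, 11.45 and 11.37 at week 10. The lowest week 10 animal lay below the highest week 2 animal. The change was 0.31 (SE 0.089, adjusted p = 0.0177 in limma), and it was lost without week 2 animal 6 or week 10 animal 1, at up to 0.055. Ndufs4, an accessory subunit of the matrix arm whose loss causes Leigh syndrome, ran from 9.37 over 9.61 to 9.78 at week 2 and was 9.28, 9.26, 9.21 and 9.22 at week 10. The ages did not overlap. It fell by 0.38 (SE 0.069, adjusted p = 0.000555 in limma). Ndufa3, a small membrane-arm subunit, was called lower (-0.30, SE 0.10, adjusted p = 0.0473 in limma) with overlapping ages, and only 6 of the 23 fits that left out 1 array called it, the adjusted p reaching 0.168, and it was not called with week 2 animal 5 in batch 2. Ndufb9, a membrane-arm subunit with the brightest probe set of complex I, had a change of -0.034.

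Complex IV had 1 called member among its 14. Cox6a2, the subunit 6a isoform known from heart and skeletal muscle, ran from 6.35 over 6.42 to 6.50 at week 2 and was 6.24, 6.16, 5.94 and 6.28 at week 10. The ages did not overlap. It fell by 0.30 (SE 0.091, adjusted p = 0.0281 in limma), which was lost without week 2 animal 4 or without week 10 animal 6 or 7, at up to 0.107. Of the 7 muscle marker genes tested, whose mean level was 4.94 to 5.08 at week 2 and 5.35 to 5.48 at week 10, 3 were called higher and none lower at week 10, and their part in the Cox6a2 values was not tested. Cox6a1, the widely expressed isoform, with the brightest probe set of the 82, had a change of -0.20 and was not called (adjusted p = 0.0858), though it differed among the 5 ages in the F-test (adjusted p = 0.0265).

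The other paralogs of complex IV were not called at any step. Cox4i1, the common isoform of subunit 4, had a change of 0.0092 with a 95% interval from -0.14 to 0.16. Cox4i2, an isoform known from lung and pericytes, was dim, between 4.16 and 5.30 on all arrays. Cox8a, the common isoform of subunit 8, had a change of -0.26 (adjusted p = 0.194) with week 10 animal 1 at 11.15 below all other animals. The muscle isoform Cox8b and the testis isoform Cox8c were dim, with means of 5.00 and 4.17 over all arrays. Cox7a2 had a change of -0.083, Cox7a2l one of 0.032, and Cox6b1 one of -0.23 (adjusted p = 0.0912), while a second Cox6b1 probe set was called lower (-0.36, adjusted p = 0.00676).

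Step by step, calls fell on the 2 earliest steps. From week 2 to week 3, 13 members were lower and 1 was higher, against 9.61% of all genes lower and 5.63% higher, and the median change was -0.10 over the members and -0.027 over all genes. From week 3 to week 4, 5 members were higher and none lower, against 5.47% and 4.26% of all genes, with medians of 0.076 and 0.063. From week 4 to week 5 and from week 5 to week 10 limma called none of the 82, with 7 and 4 at an unadjusted p under 0.05. Of all genes 0.0109% were called higher and 0.0652% lower at week 5 against week 4, and 0.0217% in each direction at week 10 against week 5. The moderated F-test found 19 of the 82 to differ among the 5 ages, which is 23.2% beside 31% of all genes. They were 5 members each of complexes I and V, 4 of complex III, 2 of complex IV, 2 assembly factors and Sdhd of complex II. Over the 5 comparisons 27 members were called at least once and 55 never. The share of all genes called at least once was not counted.

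**Figure D5:**
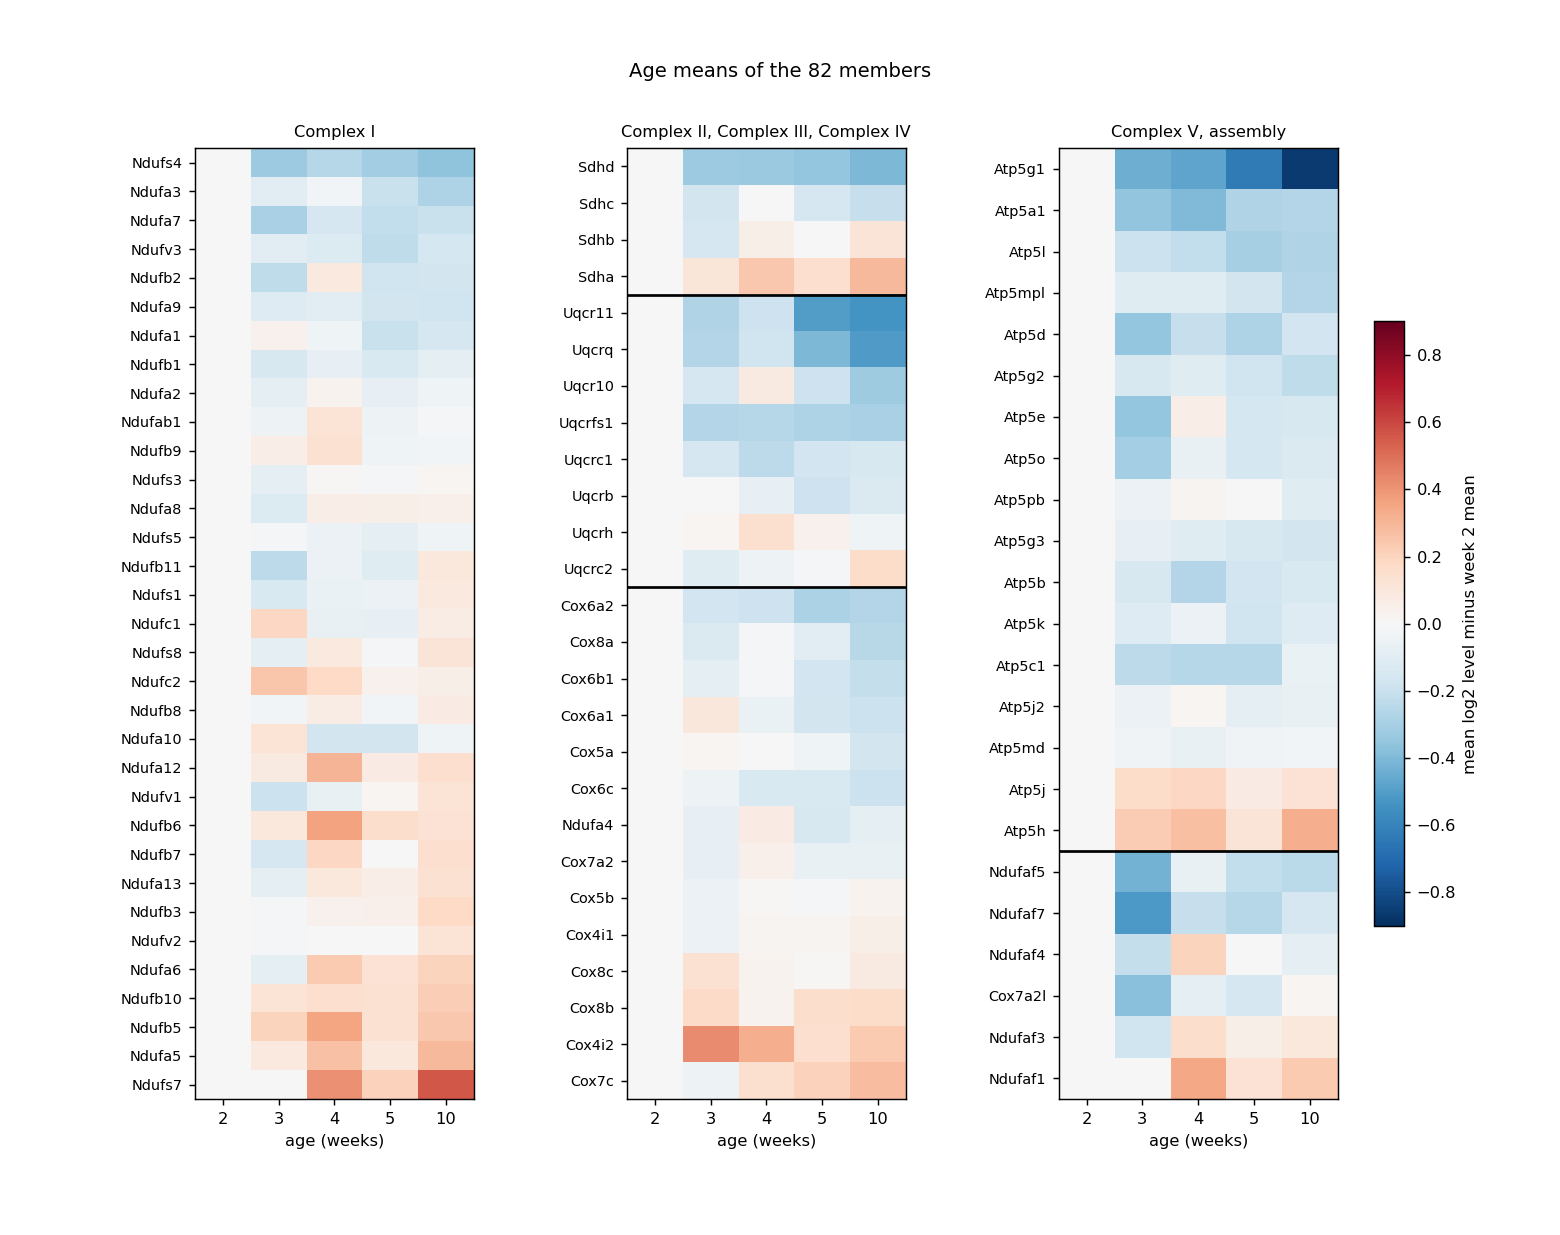
Mean log2 level of each of the 82 genes at each age minus its week 2 mean (colour), genes in rows sorted by the fitted week 10 change within complex, age in weeks on the x axis. Atp5g1, Uqcr11 and Uqcrq are darkest on the lower side, and Ndufs7 on the higher side.

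Of the 13 members lower at week 3, 5 belong to complex V, 3 to complex I, 2 to complex III, 2 to the assembly factors and 1 to complex II. Atp5g1 was lower by week 3 (-0.42, adjusted p = 0.00179), and so were Atp5d (-0.41), Atp5e (-0.39), Atp5a1 (-0.35) and Atp5o (-0.33), the epsilon subunit and the oligomycin sensitivity protein among them. The largest drop at this step was in Ndufaf7, a methyltransferase that modifies a complex I subunit during assembly. It ran from 8.59 over 8.74 to 9.01 at week 2 and was 8.32, 8.32, 8.25 and 8.16 at week 3, with no overlap, a change of -0.56 (SE 0.11) and a limma adjusted p of 0.00245. Ndufaf5, which hydroxylates a complex I subunit, changed by -0.42 (adjusted p = 0.0285). In complex I Ndufs4, Ndufb11 and Ndufa7 were lower by 0.31 to 0.35 in size. The calls of Ndufb11 and of either Atp5e or Atp5o were lost with week 2 animal 5 in batch 2, which kept 12 of the 14 calls of this step. In complexes II and III Sdhd, Uqcr11 and Uqcrfs1 were lower by 0.29 to 0.32 in size. Only Ndufc2, a small membrane-arm subunit, was higher: 12.29, 12.07, 12.21 and 12.19 at week 3 against 11.86 to 12.02 at week 2 (0.25, adjusted p = 0.0259 in limma). A second Ndufc2 probe set had a change of 0.02, and a second Atp5o probe set one of 0.32 (adjusted p = 0.0571).

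The 5 members higher at week 4 than at week 3 were all of complex I or its assembly. Ndufs7 went from 10.52, 10.56, 10.51 and 10.75 to 11.03, 10.95, 11.19 and 10.82 (0.41, SE 0.12, adjusted p = 0.0295 in limma), and the ages did not overlap. The other 4 were Ndufb7 (0.34) and Ndufb2 (0.32), small subunits of the membrane arm, and the assembly factors Ndufaf1 (0.34) and Ndufaf3 (0.33). With week 2 animal 5 in batch 2, Ndufaf1 was not called. The mean of the 6 assembly and accessory factors was 8.58 to 8.97 at week 2, 8.37 to 8.59 at week 3 and 8.74 to 8.89 at week 4. All 6 had estimates between 0.30 and 0.42 at this step. Ndufaf4 was the highest, at 0.42, but was not called (adjusted p = 0.0856), and a second Ndufaf4 probe set was called lower (-0.76, adjusted p = 0.00027). Ndufa10 likewise had a change of -0.29 on the probe set used and of 0.69 on a second, which was called higher (adjusted p = 0.00122).

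Technical measures were read over the same 2 steps. Week 3 had a scan day to itself. RNA integrity was read as the log2 value of the beta-actin 3 prime probe set minus that of the 5 prime one. It stood at 1.18 ± 0.078 (SD, n = 4) at week 3, 1.28 ± 0.23 (n = 6) at week 2 and 2.07 ± 0.38 (n = 4) at week 4. The week 3 animals, at 1.07 to 1.24, lay within the week 2 range of 0.90 to 1.51. Those of week 4, at 1.50 to 2.28, lay above all of week 3. The same difference read from the Gapdh probe sets was 0.08 to 0.32 at week 3 and 0.07 to 0.36 at week 4, which overlapped. With batch replaced by a random block of scan day, 0 of the 82 were called at week 3 against week 2 and 0 at week 4 against week 3. Of all 16103 tested probe sets 112 and 1 were then called, beside 2570 and 1839 in the main fit. Adding the actin difference to the fit left 11 and 0 members called, and 2593 and 0 of all tested probe sets. Age and scan day cannot be told apart at week 3. Marker genes of other cells also differed at these steps: 4 of 8 oligodendrocyte genes and both blood genes tested, of 4 on the array, were higher at week 3 than at week 2 (the oligodendrocyte mean was 9.74 to 10.94 at week 2 and 11.10 to 11.26 at week 3), and both blood genes were lower at week 4 than at week 3. Of 9 endothelial genes 3 were lower and none higher at week 3 than at week 2, with a mean level of 6.59 to 6.81 at week 2 and 6.47 to 6.58 at week 3. Of 10 interneuron genes 2 were higher at week 3 than at week 2 and 2 lower at week 4 than at week 3, with a mean of 8.70 to 8.95 at week 2, 9.12 to 9.24 at week 3 and 8.83 to 8.94 at week 4. Their part in the members' changes was not tested, and in mixed tissue fewer cells of a type and less RNA per cell cannot be told apart.

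Scan day 4 held 1 animal each of weeks 2 and 10, which are also in the fit over all arrays. Between them Atp5g1 went from 11.68 to 10.82 and Ndufs7 from 10.36 to 11.09, with no replicate. When a random block of scan day replaced batch, 13 of the 15 were called, and when scan day was a fixed term and week 3 was left out, 4 of the 15 were called. Of all tested probe sets 2672 and 1523 were called in these settings, beside 2748 in the main fit. The actin difference was 1.56 ± 0.17 (n = 4) at week 10. With it as a covariate 13 of the 15 were called, and 2 other members. Without the 2 arrays of scan day 1, 10 of the 15 were called. Those arrays had the highest Gapdh 3 prime minus 5 prime differences, 0.75 in week 10 animal 1 and 0.48 in week 5 batch 1 animal 2. The other week 10 animals had 0.02 to 0.15. Of the endothelial markers 4 of 9 were called lower at week 10 and none higher, and of the oligodendrocyte precursor markers 4 of 6 were lower and none higher (mean level 7.97 to 8.17 at week 2 and 7.07 to 7.41 at week 10), and their part in the members' changes was not tested.

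Weeks 2 and 5 were the ages held by both batches. In batch 1 no member was higher and 7 were lower at week 5 than at week 2, beside 10.4% of all genes called in either direction. In batch 2, with 2 animals of each age, 1 was higher and 3 were lower, beside 10.8%. The higher one was Cox7c (0.54, limma adjusted p = 0.044), whose probe set was dim, with a mean of 5.30. The test of the difference between batches called none of the 82, and 1.73% of all genes. The lowest limma adjusted p of a member was 0.246, that of Cox7c. Atp5g1 fell by 0.66 (SE 0.093, adjusted p = 0.000185) in batch 1 and by 0.61 (SE 0.12, adjusted p = 0.00275) in batch 2. Sdhd also fell in both, by 0.31 (adjusted p = 0.0432) and by 0.42 (adjusted p = 0.0356). Uqcr11 fell by 0.54 in batch 1 (adjusted p = 0.00255) and had an estimate of -0.41 in batch 2 (adjusted p = 0.0629).

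Probe sets of 1 gene did not always agree. Of the 44 members with several tested probe sets, 15 had estimates of both signs at week 10 against week 2. Among the 15 called members, 5 had no other tested probe set, 6 had others that all shared the direction, and 4 had at least 1 that did not: Uqcr10, Uqcrq, Sdhd and Ndufs4. Only the sign was counted here. Ndufs7, Ndufa5, Sdha and Atp5h, the members higher at week 10, were not called when read from their other probe set. The second Uqcrq probe set, with a mean of 5.77, had a change of 0.11 (adjusted p = 0.644), and for Ndufs4 1 of its 2 others had a change of 0.26 (adjusted p = 0.413). At week 4 against week 3 both other Uqcr10 probe sets were called higher (0.69 and 0.51), and the one used was not (0.23). Ndufs8, a core iron-sulfur subunit of complex I, was called at no step, while 3 of its 5 other probe sets were called lower at week 3 (-0.36 to -0.51) and 2 higher at week 4 (0.37 and 0.40). Ndufb2, not called at week 3, had another probe set called lower there (-0.52). Ndufb11 and Ndufa7, not called at week 10 on the probe set used, each had another probe set called lower (-0.35 and -0.24).

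Other genes of mitochondrial energy metabolism were read from lists. Of 20 tested genes of pyruvate oxidation and the citric acid cycle, 5 were lower and none higher at week 10 than at week 2, led by Dlst (-0.47, adjusted p = 0.000967) and Ogdh (-0.38, adjusted p = 0.00844), both parts of the 2-oxoglutarate dehydrogenase complex. Among 10 electron carriers and remaining subunits 2 were lower, cytochrome c (Cycs, -0.30) and the electron transfer flavoprotein dehydrogenase (Etfdh, -0.31). Of 12 carriers and porins of the mitochondrial membranes 4 were lower and 1 higher, with the glutamate carrier Slc25a22 at -0.50 and Slc25a14 at 0.44. Among 24 assembly factors outside the naming pattern 4 were higher and 2 lower, the oxidase factors Coa5 (0.66, adjusted p = 4.95e-05) and Cox17 (0.57, adjusted p = 0.000141) most.

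Of 17 regulators of mitochondrial biogenesis 2 were lower at week 10 and none higher: Gabpa (-0.58, adjusted p = 0.0129) and Gabpb1 (-0.40, adjusted p = 0.0258), the subunits of the ETS factor also called nuclear respiratory factor 2. Mitochondrial ribosomal proteins had 4 higher and 4 lower of 71, with Mrpl52 at 0.37 and Mrpl28 at 0.35. At week 3 against week 2 they had 22 lower and none higher, beside 9.61% and 5.63% of all genes. At week 4 against week 3 they had 14 higher and none lower, beside 5.47% and 4.26% of all genes. Import and fusion genes had 1 lower of 21, Timm8a1 (-0.44), and of 4 creatine kinase and lactate dehydrogenase genes Ldha was lower (-0.39, adjusted p = 0.000741). Age and scan day cannot be told apart at week 3, and no cause of the ribosomal protein changes was tested.

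The tissue label was read against cell markers. All 9 excitatory cortical neuron genes and all 10 interneuron genes on the array passed the filter. At week 10 against week 2, 1 of the excitatory neuron genes was called lower and 2 of the interneuron genes were called higher, of 10 astrocyte genes 2 were higher and 3 lower, and of 10 microglia genes 1 was higher and 2 lower. The mean level of 6 striatal markers spread from 6.78 to 9.89 over the week 5 animals. It was 8.33 to 9.78 at week 2, 9.59 to 10.16 at week 3, 8.94 to 9.81 at week 4 and 8.40 to 10.06 at week 10. Of the 6, 1 was called higher at week 3 than at week 2 and 1 lower at week 4 than at week 3. Their part in the members' values was not tested. Over the members, the median SD between animals of an age lay between 0.098 and 0.13 log2 units.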

How the data were processed

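Total RNA of 23 animals was hybridised to 1-colour Affymetrix arrays, whose number limits the precision. The authors deposited log2 values, and the submitters' processing notes name GCRMA, a method that in general corrects background by probe sequence and quantile-normalizes; its version is not given in the sources used here. No further normalization was applied; array medians lay between 6.15 and 6.27.

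Of 22690 probe sets, 16103 with log2 at least 4 on at least 4 arrays were tested. Symbols came from the platform annotation, updated by Entrez ID: 20393 probe sets had 1 symbol, 691 several and 1606 none. Members came from single-symbol probe sets, 156 in all and 149 tested. limma 3.58.1 in R 4.3.3 fitted 1 mean per age and a batch term over all arrays, with Benjamini-Hochberg adjustment over all tested probe sets, called under 0.05. Intervals are 95%. Each array is an independent animal, per the labels. The script was tested on simulated data.

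Members and lists were chosen with earlier results of these data known. Members named were, per complex, up to 4 called at week 10 against week 2 or in the F-test and the one with the brightest probe set, up to 3 called in each direction at each other step, paralogs, and members with another probe set called otherwise. The further members named at weeks 3 and 4 and in the batch comparison were chosen after their values were seen. In the pathway lists up to 2 called genes are named. Week 2 animal 5 carries batch 1 in its title and batch 2 in its description, and batch 1 was used. Placing it in batch 2 ended the calls of Sdha and Ndufa3 at week 10 and Ndufaf1 at week 4. At week 3 it ended those of Ndufb11 and of either Atp5e or Atp5o, which were not read singly there. Week 5 has an animal 2 in both batches. Animal numbers are shared across ages but did not pair the samples: 8 of 25 same-numbered pairs correlated over 0.1 (-0.52 to 0.29).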

Additional observations from a re-analysis of the deposited data

Results flagged for a closer look

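Single animals stood far from the others of their age for 11 of 225 combinations of a named member and an age, and chance flags about 1 in 20 such groups. In complex V, Atp5b was 13.24 in week 4 animal 1 against 13.07 in the nearest animal, and Atp5d was 11.50 in week 5 batch 1 animal 2 against 11.08. Atp5h was 13.08 in week 3 animal 6 against 12.94 and 13.18 in week 10 animal 6 against 13.03, and without the latter its week 10 call was lost. Atp5pb was 11.97 in week 10 animal 6 against 12.27. In complex IV, Cox4i1 was 12.81 in week 2 batch 2 animal 2 against 13.02, and the dim Cox4i2 was 4.16 in week 5 batch 2 animal 2 against 4.95. Cox6b1 was 13.41 in week 4 animal 6 against 13.61, and Cox7a2 was 12.62 in the same animal against 12.86. Ndufb2 of complex I was 11.49 in week 2 batch 2 animal 2 against 11.73, and Uqcrq of complex III was 10.36 in week 3 animal 6 against 10.17.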

How the results depend on the processing

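The members called at week 10 against week 2 numbered 15 and stayed between 10 and 15 when 1 array was left out. Atp5g1 and Uqcr11 were called in all 18 other settings, and Ndufa3 and Cox6a2 in 10 each. With animal number as a replicate block, 9 members were called at week 10 against week 2, 1 at week 4 against week 3 and 9 among the 5 ages; all 9 of the first were among the 15, and the block leaves 10 residual degrees of freedom in place of 17. A fixed term for scan day, with week 3 left out, called 5 at week 10 against week 2 and 2 among the ages. With batch replaced by a random block of scan day the counts were 0 at week 3 against week 2, 0 at week 4 against week 3 and 8 among the ages, and beside batch they were 2, 0 and 7. Scan days 6 and 7 as 1 term gave 4 at week 3 and 0 at week 4. Array weights gave 22, 15 and 34. Over all tested probe sets the calls at weeks 3 and 4 numbered 4212 and 3678 with array weights. They numbered 597 and 191 with the block beside batch, 1158 and 2 with scan days 6 and 7 as 1 term, and 2570 and 1839 in the main fit. Median-centred arrays gave 11 at week 4, the actin covariate 0, and leaving out the assembly factors 3 of 76. The cause was not tested.

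Leaving out 1 array gave 7 to 16 calls at week 3, 0 to 7 at week 4, 12 to 22 among the ages and 0 at both later steps. The week 3 count of 14 fell to 9 without week 2 animal 3, to 7 without animal 4, and to 8 without week 3 animal 2, 3 or 5. The week 4 count of 5 fell to 0 without week 3 animal 3 or week 4 animal 1 or 2, and to 1 without week 3 animal 5 or week 4 animal 3. Over all tested probe sets the week 4 count of 1839 was 1243, 1227, 1219, 1350 and 1405 in these fits. The count of 19 among the ages fell to 12 without week 2 animal 5. Without the arrays of scan day 1, an alternative chosen after seeing the data, 10 were called at week 10 against week 2. Leaving out probe sets ending in _s_at, _x_at or _a_at turned the direction at week 10 of Uqcr10 (0.97), Uqcrq (0.11), Atp5c1 (0.31) and Ndufb11 (-0.35). Dim probe sets, such as those of Cox8b, Cox8c, Cox7c (mean 5.30) and Ndufb1 (mean 5.03), limit what can be read.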
